A study of Mus musculus with 2 samples.

Results

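The islands described here are the called regions of H3K4me3 and H3K27me3 that overlapped a microRNA gene, or lay within 1 kb of one, on mouse chromosomes 1 to 19. A microRNA gene was any gene of the RefSeq table for GRCm38.p6 (mm10) whose symbol starts with Mir and a digit or with Mirlet7. This rule took 303 of the 25702 islands of the series, 208 of them H3K4me3 islands and 95 H3K27me3 islands. They lay at 306 of 1103 microRNA genes, of which 1090 are hairpins and 13 are longer host transcripts such as Mir17hg. The rule used position only, and neither the width nor the height of an island.

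A microRNA is cut from a hairpin in a longer primary transcript, loaded into an Argonaute protein and guided to messenger RNAs mainly by its seed, the bases 2 to 8 from its 5′ end. Some hairpins have a transcript of their own, and many lie inside another gene and can be cut from its RNA. Neighbouring hairpins are often made from 1 shared transcript, whose start can be far from the hairpin. H3K4me3 marks active and poised starts of transcription, and H3K27me3 is the mark written by Polycomb repressive complex 2, which in differentiated tissue covers developmental regulators of other lineages. The cells were from the incisor pulp, the soft core of a continuously growing tooth, of CD1 mice aged 5 days. All animals received EdU once, at 3.3 µg per g, a thymidine analogue taken up during DNA synthesis, and EdU-positive cells were sorted 24 h later from dissociated pulp. The labels give no genotype beyond the strain and do not say how many pups were pooled. There was 1 library for each mark and an input library was not used, so replicates could not be compared and no test was made. In a mixed sorted population, a mark present in some cells and the other mark present in the rest cannot be told apart from both marks in the same cells.

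Mature sequences are shown first for the microRNAs on which the results turn, because hairpins with the same or a nearly identical seed lay in different chromatin. Of 1090 hairpins, 923 had a mature sequence in the RefSeq GRCm38.p6 table, and 273 of the 297 hairpins with an island did. Sequences run 5′ to 3′ and capitals mark the seed. The first set, from the Mir17 cluster and from Mir106b, Mir93 and Mir25, lay in H3K4me3 islands and is known for promoting cell division.
miR-17-5p: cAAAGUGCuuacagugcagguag
miR-20a-5p: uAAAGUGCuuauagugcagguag
miR-106b-5p: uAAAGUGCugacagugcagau
miR-93-5p: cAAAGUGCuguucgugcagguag
miR-18a-5p: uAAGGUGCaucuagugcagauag
miR-19a-3p: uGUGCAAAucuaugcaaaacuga
miR-19b-3p: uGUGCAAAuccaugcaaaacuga
miR-92a-3p: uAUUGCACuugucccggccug
miR-25-3p: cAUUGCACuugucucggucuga
The second set comes from the Mir290 cluster of early embryonic cells, which lay in an H3K27me3 island. Its seed AAGUGCU and the seed AAAGUGC of miR-17 share the letters AAGUGC, shifted by 1 base.
miR-291a-3p: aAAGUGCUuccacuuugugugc
miR-294-3p: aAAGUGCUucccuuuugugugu
miR-295-3p: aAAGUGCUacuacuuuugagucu
The third set, of mesenchymal microRNAs, lay in H3K4me3 islands on the strand opposite to dynamin genes.
miR-199a-5p: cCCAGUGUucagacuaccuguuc
miR-199a-3p: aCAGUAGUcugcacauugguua
miR-199b-3p: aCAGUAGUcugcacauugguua
miR-214-3p: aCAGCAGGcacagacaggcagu
The fourth set comes from the Hox clusters and lay in 4 of the 6 widest H3K27me3 islands. Counting from the 5′ end, miR-10a-5p and miR-10b-5p differ by U12A, and miR-196a-5p and miR-196b-5p differ by A12C, outside the seed in both pairs.
miR-10a-5p: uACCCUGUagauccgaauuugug
miR-10b-5p: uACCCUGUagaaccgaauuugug
miR-196a-5p: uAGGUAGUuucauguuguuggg
miR-196b-5p: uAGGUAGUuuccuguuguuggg
The fifth set is neural and sensory, with H3K27me3 alone or both marks.
miR-9-5p: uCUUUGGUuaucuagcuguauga
miR-182-5p: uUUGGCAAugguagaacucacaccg
miR-96-5p: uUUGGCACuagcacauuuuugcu
miR-183-5p: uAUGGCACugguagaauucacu
miR-132-3p: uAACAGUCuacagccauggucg
miR-212-3p: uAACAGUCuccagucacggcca
The last sets are families split between states: the seed GGCAGUG was found at Mir34a with neither mark, Mir34b and Mir449c with both and Mir449a with H3K27me3 only, and the let-7 seed at Mirlet7i and Mirlet7e with H3K4me3 only and at Mirlet7g with neither.
miR-34a-5p: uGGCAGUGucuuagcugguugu
miR-34b-5p: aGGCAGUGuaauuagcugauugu
miR-449a-5p: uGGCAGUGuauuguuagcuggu
let-7i-5p: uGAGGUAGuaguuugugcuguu
let-7e-5p: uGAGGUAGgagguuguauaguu
let-7g-5p: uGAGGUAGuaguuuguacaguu

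A further set shows annotated starts of genes that host such hairpins, as 250 bases before to 50 after the start, with each CG in capitals. Mcm7 hosts Mir25, Mir93 and Mir106b and its start lay in an H3K4me3 island. Dnm3os is the noncoding RNA that holds Mir199a-2 and Mir214, and its start lay in an H3K4me3 island too. The Mirc35hg start, upstream of Mir183, Mir96 and Mir182, was within 1 kb of both marks, and the Mir9-3hg start shown was in H3K27me3 alone.
Mcm7 start, chr5:138171834-138172133, minus strand: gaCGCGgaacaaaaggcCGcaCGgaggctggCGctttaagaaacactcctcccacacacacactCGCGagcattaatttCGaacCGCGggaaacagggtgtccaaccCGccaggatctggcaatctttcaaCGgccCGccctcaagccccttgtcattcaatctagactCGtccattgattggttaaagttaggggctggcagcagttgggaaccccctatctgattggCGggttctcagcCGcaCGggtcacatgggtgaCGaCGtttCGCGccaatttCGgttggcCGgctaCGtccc
Dnm3os start, chr1:162217373-162217672, plus strand: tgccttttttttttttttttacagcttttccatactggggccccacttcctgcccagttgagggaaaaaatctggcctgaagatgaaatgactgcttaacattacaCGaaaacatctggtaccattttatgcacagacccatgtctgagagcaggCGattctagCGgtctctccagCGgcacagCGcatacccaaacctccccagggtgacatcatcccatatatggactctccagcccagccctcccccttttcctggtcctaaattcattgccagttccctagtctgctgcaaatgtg
Mirc35hg start, chr6:30174076-30174375, minus strand: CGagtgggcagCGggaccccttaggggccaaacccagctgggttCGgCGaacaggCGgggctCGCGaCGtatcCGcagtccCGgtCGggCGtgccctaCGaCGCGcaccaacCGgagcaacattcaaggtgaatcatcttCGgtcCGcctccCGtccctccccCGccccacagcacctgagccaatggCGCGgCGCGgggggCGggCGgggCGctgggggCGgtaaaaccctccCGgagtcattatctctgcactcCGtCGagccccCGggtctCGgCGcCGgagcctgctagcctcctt
Mir9-3hg start, chr7:79499776-79500075, plus strand: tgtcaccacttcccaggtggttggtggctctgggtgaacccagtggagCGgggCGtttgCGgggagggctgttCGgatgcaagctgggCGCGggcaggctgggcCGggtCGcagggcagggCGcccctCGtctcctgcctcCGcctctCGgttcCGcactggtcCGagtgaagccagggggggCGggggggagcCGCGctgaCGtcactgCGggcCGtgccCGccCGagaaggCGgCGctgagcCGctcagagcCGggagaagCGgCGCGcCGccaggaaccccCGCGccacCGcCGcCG
The motif CG, which reads the same on both strands, occurred 24 times in the Mcm7 window, 5 times in that of Dnm3os and 35 times each in those of Mirc35hg and Mir9-3hg. Of all 31396 start windows of this length on chromosomes 1 to 19 in the table, which does not cover every gene, 20.5% held at least as many as Mcm7, 62.4% at least as many as Dnm3os and 7.18% at least as many as either of the last pair. The window of Dnm3os was thus poor in CG although it lay in a 10.4 kb H3K4me3 island. Over 825 start windows of 580 microRNA hosts, the median number of CG was 23 with H3K4me3 only (424 windows), 20.5 with both marks (152), 7 with H3K27me3 only (61) and 4 with neither (188). Over all start windows the same medians were 22, 21, 6 and 3, so hosts followed the order of starts in general.

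H3K4me3 was found within 1 kb of 225 of 1090 hairpins (20.6%, exact Clopper-Pearson 95% interval 18.3 to 23.2%) and H3K27me3 of 116 (10.6%, 8.87 to 12.6%). Both marks were at 44 hairpins (4.04%, 2.95 to 5.38%), H3K4me3 alone at 181, H3K27me3 alone at 72 and neither at 793. The intervals cover counting over genes only, and hairpins of 1 cluster are not independent. Under the same rule H3K4me3 reached 63.8% of 20556 protein-coding genes, 50.3% of 386 transfer RNA genes, 21.8% of 12311 long noncoding RNA genes and 9.73% of 2200 small nucleolar and small nuclear RNA genes. H3K27me3 reached 25.1% of protein-coding, 18.8% of long noncoding and 2.45% of small nucleolar and small nuclear RNA genes, and both marks 19.8%, 8.22% and 0.364% of these classes in turn. For transfer RNA genes the shares were 13% with H3K27me3 and 6.99% with both. Of the sequence between the first and last gene or island of each chromosome, 3.45% was within 1 kb of an H3K4me3 island and 4.63% within 1 kb of an H3K27me3 island. Hairpins were therefore marked more often than an average stretch of sequence. They were marked more often than the likewise short small nucleolar and small nuclear RNA genes, but less often than transfer RNA genes. H3K4me3 was about as frequent as at long noncoding RNA genes. Long genes reach more islands than short ones, so the shares of protein-coding and long noncoding genes are not matched for length.

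**Figure D1:**
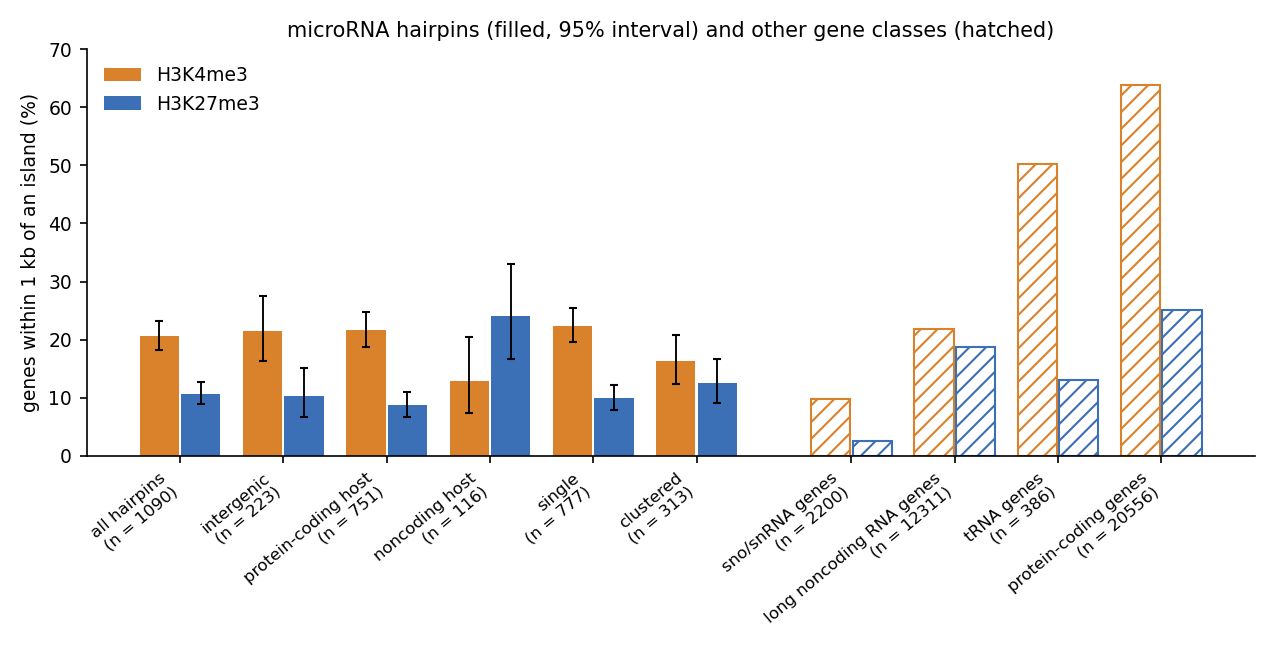
Share of genes within 1 kb of an island, in percent, for H3K4me3 (orange) and H3K27me3 (blue); filled bars are classes of microRNA hairpins with exact 95% intervals over genes, hatched bars are other gene classes. Noncoding hosts are the one hairpin class shown in which H3K27me3 (24.1%) stands above H3K4me3 (12.9%).

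Most marked hairpins lay inside their island. An H3K4me3 island overlapped 196 of the 225 hairpins and an H3K27me3 island 104 of the 116. For H3K4me3, 15 hairpins lay just inside the limit, over 0.5 to 1 kb from the island, and 8 just outside, over 1 to 1.5 kb. The median height of the nearest island was 117 for the former and 119 for the latter. For H3K27me3 there were 7 hairpins just inside and 10 just outside, with median heights of 26 and 11.5. A limit of 5 kb would take 324 hairpins for H3K4me3, 171 for H3K27me3 and 90 for both marks. Height is the score that the authors gave the summit of an island, and it was compared only within a mark.

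Hairpins outside any other gene and hairpins inside a host gene carried the marks at similar shares. A host was any other annotated gene whose span holds the hairpin, on either strand. By this rule Mir17, Mir18, Mir19a, Mir20a and Mir19b-1 counted as intergenic, since only Mir92-1 lay in the annotated span of Mir17hg. Many unmarked Dlk1-Dio3 hairpins, such as Mir379, also counted as intergenic. Of the Mir290 cluster, all but Mir290a and Mir290b counted as inside protein-coding Nlrp12, mostly on its opposite strand. The classes are therefore of annotated spans and not of known transcripts. The table gives gene spans and no exons, so exonic and intronic hairpins were not separated. Of 223 intergenic hairpins, 48 had H3K4me3 (21.5%, 16.3 to 27.5%) and 23 had H3K27me3 (10.3%, 6.65 to 15.1%). Of 867 hairpins in a host, 177 had H3K4me3 (20.4%, 17.8 to 23.3%) and 93 had H3K27me3 (10.7%, 8.75 to 13.0%). The intervals of the classes overlap for both marks. When only protein-coding hosts counted as hosts, H3K27me3 was at 51 of 339 other hairpins (15.0%) and 65 of 751 in hosts (8.66%).

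The shares differed by the kind of host. In 751 hairpins with a protein-coding host, 162 had H3K4me3 (21.6%, 18.7 to 24.7%) and 65 had H3K27me3 (8.66%, 6.74 to 10.9%). In 116 hairpins with noncoding hosts only, 15 had H3K4me3 (12.9%, 7.42 to 20.4%) and 28 had H3K27me3 (24.1%, 16.7 to 33.0%). For H3K27me3 these intervals do not overlap, for H3K4me3 they do. They count hairpins singly although hairpins of 1 cluster often share an island, and no count by locus was made here. Of those with a protein-coding host, 71 lie inside Sfmbt2 alone and had neither mark. The noncoding hosts with H3K27me3 include Mirc35hg of the Mir183 cluster, C130071C03Rik of Mir9-2, Gm3764 of Mir9-1 and Mir3093, Mir670hg of Mir129-2 and Mir129b, and Rian of Mir341 and Mir1188. Where strands were known, hairpins on the strand of their protein-coding host had H3K4me3 in 117 of 459 (25.5%) and those on the opposite strand in 16 of 78 (20.5%). H3K27me3 was at 40 of 459 (8.71%) and 11 of 78 (14.1%) of them.

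Distance from an annotated start ordered the hairpins for H3K4me3. It could be set for 794 hairpins, since the start table used here holds 80.1% of protein-coding genes and 0 starts on chromosome 18, so none of the 34 hairpins there entered. Within 1 kb of a start of another gene, 69 of 111 hairpins had H3K4me3 (62.2%, 52.5 to 71.2%), and between 1 and 2 kb 27 of 40 did (67.5%). The share was 42.6% of 129 between 2 and 5 kb, 7.63% of 118 between 5 and 10 kb, 3.91% of 256 between 10 and 50 kb and 0.714% of 140 beyond 50 kb. H3K4me3 at hairpins thus became rare beyond 5 kb. H3K27me3 was at 23.4% of hairpins within 1 kb and 27.5% between 1 and 2 kb, and then declined more slowly than H3K4me3, through 14.7% between 2 and 5 kb and 12.7% between 5 and 10 kb to 7.03% between 10 and 50 kb, and 0 of 140 hairpins had it beyond 50 kb (exact upper limit 2.60%). The exact limit and the shares beyond 50 kb count hairpins and not loci, and hairpins of 1 cluster are not independent. Clustered hairpins were many at such distances, with an upper quartile of 100 kb to a start (n = 262). Between 5 and 50 kb the share with H3K27me3 was above that with H3K4me3, with overlapping intervals.

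**Figure D2:**
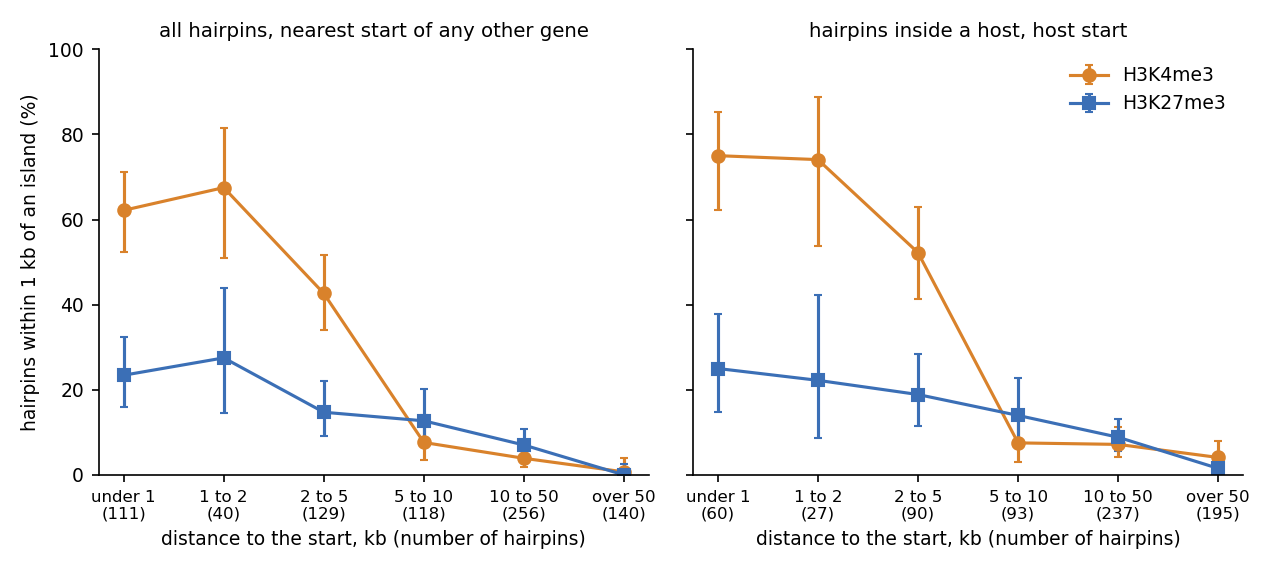
Share of hairpins within 1 kb of an island, in percent, by distance in kb to the nearest annotated start of another gene (left) and, for hairpins inside a host, to the host's start (right); bars are exact 95% intervals over genes. H3K4me3 (orange) drops from 42.6% between 2 and 5 kb to 7.63% between 5 and 10 kb on the left, while H3K27me3 (blue) goes from 14.7% to 12.7%.

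The state of the host's own start was known for 702 hairpins. H3K4me3 lay within 1 kb of the host start for 520 of them and H3K27me3 for 212. When the hairpin was over 5 kb from a host start with H3K4me3, 25 of 396 hairpins had H3K4me3 (6.31%, 4.13 to 9.18%), close to the 7 of 129 (5.43%) with an unmarked host start at that distance. A marked host promoter therefore seldom came with H3K4me3 at a distant hairpin. For H3K27me3 the hairpin had the mark in 21 of 172 when the distant host start had it (12.2%, 7.72 to 18.1%) and in 16 of 353 when it did not (4.53%, 2.61 to 7.26%). These intervals do not overlap, but they count hairpins singly, and hairpins of 1 cluster often share a host and an island. No count by locus was made for this contrast. Examples of a marked host start with an unmarked hairpin are Mir218-2, 495 kb from the start of its host Slit3, Mir26a-1, 105 kb from that of Ctdspl, and Mir30c-1, 46.1 kb from that of Nfyc. All 3 host starts had H3K4me3, and the nearest H3K4me3 islands lay 152, 20.3 and 20.1 kb from these hairpins.

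H3K4me3 islands at microRNA genes had a median width of 5.20 kb (quartiles 3.40 and 7.0 kb, n = 208) and a median height of 112.5. Over all 13892 H3K4me3 islands on chromosomes 1 to 19 the medians were 3.60 kb and 93. H3K27me3 islands at microRNA genes had a median width of 11.8 kb (7.0 and 22.2 kb, n = 95) and a median height of 29, against 6.20 kb and 13 for all 10421. The rule takes wide islands more readily, because they reach more sequence. When every island was weighted by its width plus 1 kb on each side, the medians over all islands were 4.4 kb and 109 for H3K4me3 and 9.40 kb and 18 for H3K27me3. The members' medians stayed above these for both marks, with the smaller distance for the height of H3K4me3. Whether that remaining distance exceeds the variation between libraries was not tested.

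**Figure D3:**
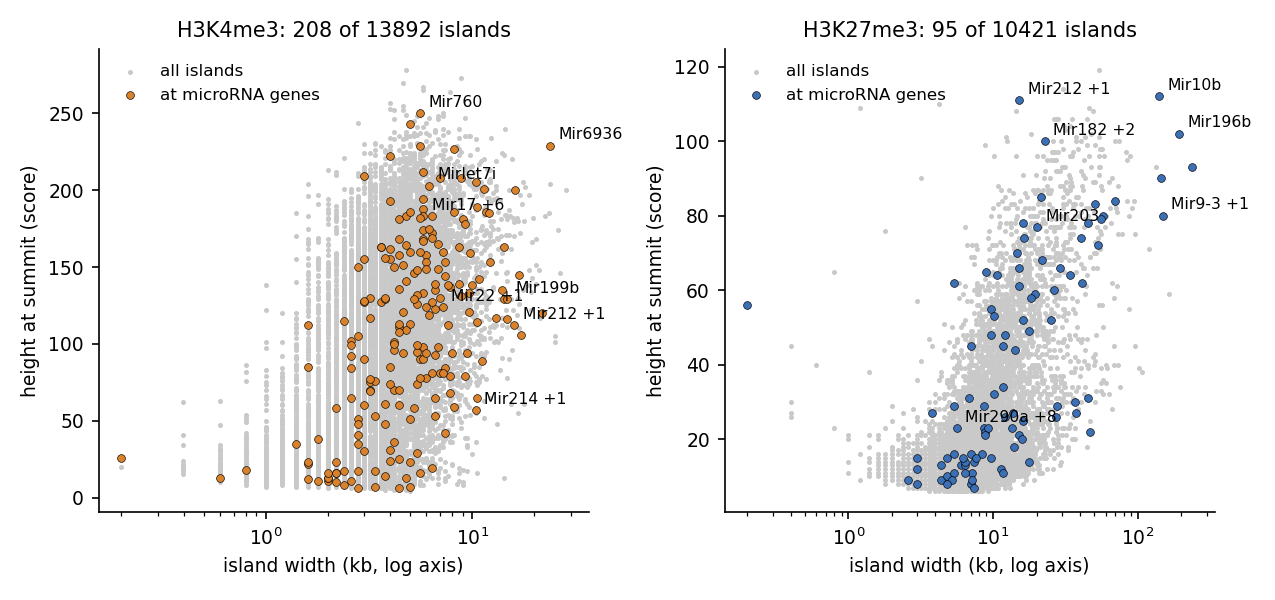
Height at the summit (the authors' score) against island width in kb on a log axis for H3K4me3 (left) and H3K27me3 (right); grey points are all islands on chromosomes 1 to 19 and coloured points those at microRNA genes, with some named (+ gives the number of further microRNA genes at the island). The Hox islands of Mir10b (height 112) and Mir196b (102) stand at the wide and high end of the right panel, and the Mir290 island (height 23) lies at the upper quartile of height of all H3K27me3 islands.

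Most H3K4me3 islands at microRNA genes were also at the start of a protein-coding gene. Among the 173 for which this could be set, 126 held a coding start (72.8%, against 78.3% of all H3K4me3 islands), 13 only a noncoding start and 34 no annotated start. Those with a coding start had a median height of 128.5 and those with none of 28. Among 81 H3K27me3 islands, 37 held a coding start (45.7%, against 29.5% of all), 13 only a noncoding start (16.0% against 5.24%) and 31 none (38.3% against 65.3%). Some of the start-less H3K4me3 islands were high and wide. That of Mirlet7i was 6.20 kb wide with a height of 203, the 386th highest of 13892, that of Mir1904 was 7.40 kb wide with a height of 153, and that of Mir199b was 14.8 kb wide with a height of 129. Mir1904 lies inside Pde4d, 1250 kb from the host start and 103 kb from any annotated start.

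H3K27me3 overlapped 54 of the 208 H3K4me3 islands (26.0%), and H3K4me3 overlapped 64 of the 95 H3K27me3 islands (67.4%). H3K4me3 islands with such an overlap had a median height of 80 and those without of 127. H3K27me3 islands with an overlap had a median height of 44.5 and those without of 22. At all 44 hairpins with both marks the islands of the marks shared sequence. Hairpins with an H3K4me3 island alone had a median GC content of 56.6% (n = 159 with a sequence), those with both marks 58.2% (n = 39), with H3K27me3 alone 50.5% (n = 61) and with neither 50.9% (n = 620). Base composition thus moved with H3K4me3, and its part in the calls was not tested.

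The widest H3K4me3 islands at microRNA genes mostly held the starts of several genes. Mir6936, inside Sirt7, lay in an island of 23.8 kb with a height of 229 that also held the start of Mafg. Mir6968 and Mir3083 shared an island of 21.8 kb at Phf1 and Cuta, and Mir3082 lay in one of 16.8 kb at Stub1 and Jmjd8. Mir6986 in Rce1 had 16.2 kb, and Mir219a-1 and Mir219c shared 14.2 kb with the starts of Ring1 and Rxrb. Ring1 encodes a subunit of Polycomb repressive complex 1, and Rxrb a retinoid receptor. Mir5136 was also in an island of 14.2 kb, at Ganab. The other wide islands were those of Mir497 and Mir195a, Mir212 and Mir132, Mir199b, and the Mir25 cluster, described below.

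The highest H3K4me3 island at a microRNA gene was that of Mir760, 5.60 kb wide with a height of 250, the 12th highest of 13892. Mir7238 in Ankrd10 followed with 243, then Mir6936 and Mir706 in Wnk1 with 229 each. The next were Mir6935 in Actg1, the cytoplasmic gamma-actin gene, with 227, Mir1945 beside Gspt1 with 222, Mir6975 in Ddx39b with 212 and Mir6538 in Rnf144a with 209. Mir2861 and Mir3960, beside Cdk9, and Mir6976 in Srf, the serum response factor gene, had 208. Apart from Mir760, for which no start could be set, all these islands held the start of a protein-coding gene. Hairpins with a number of 1000 or more, which are mostly later additions to the registry, had H3K4me3 in 142 of 629 (22.6%) and H3K27me3 in 56 (8.90%), and those with lower numbers or let-7 in 83 of 461 (18.0%) and 60 (13.0%).

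Among microRNAs of the cell cycle and of the p53 response, 9 of 16 hairpins had H3K4me3 alone, 2 both marks and 5 neither, where over all hairpins 16.6% had H3K4me3 alone, 4.04% both, 6.61% H3K27me3 alone and 72.8% neither. The 9 lie in only 2 islands. Counted by locus, with a cluster as 1 locus, 2 of 6 had H3K4me3 alone, 1 both marks and 3 neither. The whole Mir17 cluster of 6 hairpins (chr14:115043671-115044506) lay in 1 island of 5.80 kb with a height of 183, the only H3K4me3 island with 6 hairpins. Its nearest H3K27me3 island was 3.07 kb from Mir17. Mir25, Mir93 and Mir106b (chr5:138165321-138165818), which share seeds with that cluster, lay in an island of 14.8 kb with a height of 116. They are on the strand of their host Mcm7, a subunit of the replicative helicase, and Mir106b is 5.49 kb from its start. No H3K27me3 island was within 516 kb of these 3 hairpins.

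The hairpins with the seed GGCAGUG, among them the p53-induced Mir34 genes, were divided. Mir34b and Mir34c, in Hoatz and Btg4 on chromosome 9, had both marks, with an H3K4me3 island of 2.80 kb and height 48 and an H3K27me3 island of 7.60 kb and height 15. Mir34a on chromosome 4 had neither, the nearest islands being 17.7 kb (H3K4me3) and 18.5 kb (H3K27me3) away. The Mir449 cluster in Cdc20b, known from ciliated cells, lay in an H3K27me3 island of 19.4 kb and height 59. Its member Mir449c was also within 1 kb of an H3K4me3 island of 1.40 kb and height 35. Mir15b and Mir16-2, in the condensin gene Smc4, were just outside the limit at 1.57 and 1.70 kb from an H3K4me3 island. Mir15a and Mir16-1 in Dleu2 were 14.3 and 14.4 kb from one.

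Of 40 mesenchymal and skeletal hairpins, 13 had H3K4me3 alone, 27 neither mark and none H3K27me3, against 16.6% with H3K4me3 alone, 72.8% with neither and 10.6% with H3K27me3 over all hairpins. By locus the counts were 11 and 18 of 29. The nearest H3K27me3 island of this list was 15.5 kb away. All 3 loci of miR-199 carried H3K4me3 alone, and each lies on the strand opposite to a dynamin gene. Mir199b (chr2:32318460-32318569) in Dnm1 had an island of 14.8 kb and height 129. Mir199a-2 and Mir214 in Dnm3 shared one of 10.4 kb and height 57, which held the start of Dnm3os. Mir199a-1 (chr9:21496495-21496564) in Dnm2 had one of 5.00 kb and height 23. The starts of Dnm1, Dnm3 and Dnm2 were 34.8, 260 and 71.6 kb from these hairpins, so the islands did not reach the listed dynamin starts. No annotated start lay in the islands of Mir199b and Mir199a-1. This locus structure, with an antisense transcript inside a dynamin gene, is known for Dnm3os, which is required for normal skeletal growth.

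Other members of this list with H3K4me3 were Mir26b in Ctdsp1 (10.4 kb, height 205), Mir22 in Mir22hg (7.20 kb, height 124), Mir99b and Mir125a in Spaca6 (5.60 kb, height 90), Mir335 in the imprinted gene Mest (4.0 kb, height 74), Mir125b-1 in Mir100hg (7.40 kb, height 42) and Mir675 in H19 (5.60 kb, height 16). The lowest were Mir21a in Vmp1, 0.643 kb from an island of 2.60 kb and height 11, and Mir338 in Aatk, with a height of 7. Members with neither mark included Mir140 in Wwp2, which is known from cartilage and was 2.65 kb from an H3K4me3 island. Mir125b-2 was 1.27 kb away, and Mir29a, Mir29b-1, Mir29b-2 and Mir29c, which target collagen messages, were 54.4 to 61.7 kb away. Mir218-1 and Mir218-2, in Slit2 and Slit3, were 148 and 152 kb from H3K4me3.

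The let-7 family, which promotes differentiation, had H3K4me3 alone at 2 of 10 hairpins and neither mark at 8, near the shares of all hairpins (16.6% and 72.8%). Mirlet7i on chromosome 10 had the highest island, given above. Mirlet7e lay between Mir99b and Mir125a in the Spaca6 island. For the other 8 the nearest H3K4me3 island was 4.04 to 43.9 kb away, with Mirlet7g in Wdr82 the nearest and Mirlet7c-1 the farthest. Mirlet7a-2 was 42.0 kb from H3K4me3 although the start of its host Mir100hg, 61.9 kb away, was marked. No let-7 hairpin was within 23.6 kb of H3K27me3. Mir7k, which carries the let-7 seed GAGGUAG, lay apart from them in an H3K27me3 island of 69.0 kb with the pancreas and gut regulators Pdx1 and Cdx2.

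All 6 Hox hairpins lay in H3K27me3 islands and none had H3K4me3, where over all hairpins 10.6% had H3K27me3. Mir196a-2 and Mir615 shared the Hoxc island of 238 kb (height 93), the widest of all 10421 H3K27me3 islands. Mir196b lay in the Hoxa island of 193 kb (height 102), Mir196a-1 and Mir10a in the Hoxb island of 144 kb (height 90), and Mir10b in the Hoxd island of 141 kb (height 112), the 3rd highest of all. These 4 islands ranked 1st, 2nd, 5th and 6th in width. The nearest H3K4me3 islands were 8.08 kb (Mir196b) to 192 kb (Mir10a) from the hairpins. The microRNAs of both families are known to target Hox messages of neighbouring positions. Each of the 4 islands also held coding starts, whose own state is not described here. The H3K4me3 island 8.08 kb from Mir196b reached into the Hoxa island. Those nearest to Mir196a-2 and Mir615 (24.4 and 15.1 kb) and to Mir10b (19.9 kb) likewise lay in the Hoxc and Hoxd islands. These domains were therefore not free of H3K4me3. For the Hoxb hairpins the nearest H3K4me3 island, 140 kb from Mir196a-1, lay outside the Hoxb island.

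Neural and sensory hairpins had the most H3K27me3 of the longer lists: of 22, 10 had H3K27me3 alone, 5 both marks, 3 H3K4me3 alone and 4 neither, against 6.61%, 4.04%, 16.6% and 72.8% of all hairpins. By locus the counts were 8, 4, 3 and 4 of 19. All 3 miR-9 loci, whose products steer neural progenitors, lay in wide islands: Mir9-3 in one of 149 kb, Mir9-1 in one of 57.0 kb and Mir9-2 in one of 40.4 kb, with heights of 80, 80 and 74. Mir9-1 also had H3K4me3, in an island of 2.0 kb and height 13. All 3 miR-124 loci, a neuronal family, were in H3K27me3 as well, with widths of 21.6, 18.2 and 16.0 kb and heights of 68, 58 and 78 for Mir124a-1, Mir124a-2 and Mir124a-3. Mir124a-3 had an H3K4me3 island too, of 4.4 kb and height 25. Mir183, Mir96 and Mir182 (chr6:30165918-30169737), a cluster of sensory organs, shared an H3K27me3 island of 22.8 kb and height 100 and were 3.06 to 6.81 kb from H3K4me3.

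The remaining neural hairpins were mixed. Mir129-2 had an H3K27me3 island of 41.0 kb with H3K4me3 of height 10, and Mir129-1 had H3K27me3 alone (14 kb, height 18). Mir7-2 (height 44) and Mir219a-2 (height 55) had H3K27me3 alone. H3K4me3 alone was at Mir219a-1 in the Ring1 island, at Mir137 in an island of 7.80 kb and height 68 with no annotated start, and at Mir128-2 in an island of 0.599 kb and height 13 in Arpp21. Mir128-1, Mir7-1, Mir7b and Mir153 had neither mark. Outside the list, Mir1897 in the Sox2 island (50.2 kb, height 83), Mir6405 in Pax2 (53.2 kb, height 72) and Mir7055 in Slc17a7 (55.8 kb, height 79) were among the hairpins in the 10 widest H3K27me3 islands at microRNA genes.

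In the pluripotency list, 9 of 14 hairpins had H3K27me3 alone and 5 neither. The 9 were the whole Mir290 cluster (chr7:3218626-3220841), in 1 island of 5.60 kb and height 23, the only H3K27me3 island with 9 hairpins. Several of these hairpins overlap on opposite strands, so they stand for 1 locus. The nearest H3K4me3 island was 68.0 to 70.1 kb away. The other 5, Mir302a to Mir302d and Mir367, lie on the strand opposite to their host Larp7, 6.19 to 6.70 kb from H3K4me3 and over 41.4 kb from H3K27me3. That height is at the 75.4th percentile of all H3K27me3 islands and below the median of 29 at microRNA genes. The list thus came down to 2 loci, 1 with H3K27me3 and 1 with neither mark.

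**Figure D4:**
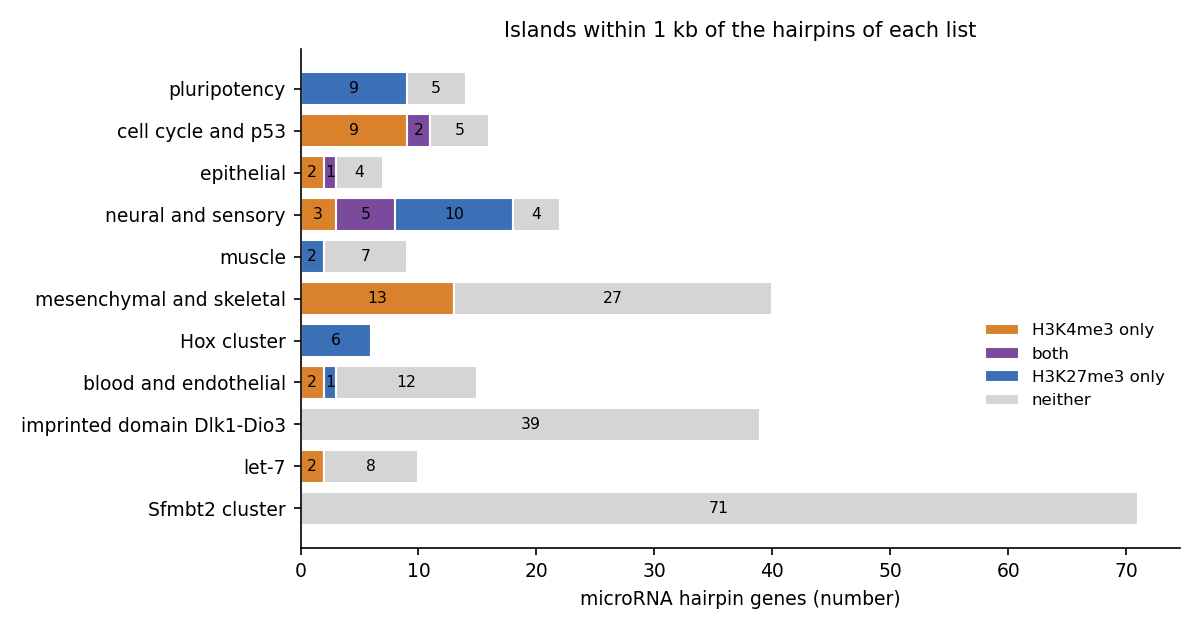
Number of hairpins of each microRNA list with H3K4me3 only (orange), both marks (purple), H3K27me3 only (blue) or neither (grey) within 1 kb. The 13 marked mesenchymal and skeletal hairpins are all H3K4me3 only and the 6 Hox hairpins all H3K27me3 only, and the Sfmbt2 and Dlk1-Dio3 lists have neither. The Dlk1-Dio3 list leaves out the marked hairpins Mir341, Mir1188 and Mir1247 of that domain.

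Of the 31 hairpins of the epithelial, muscle, and blood and endothelial lists, 23 had neither mark (74.2%), close to the 72.8% of all hairpins. The neural and sensory list, which also stands for other cell types, is not in this pool and went the other way. There 4 of 22 had neither mark. Among 7 epithelial hairpins, Mir200c and Mir141 shared an H3K4me3 island of 2.40 kb and height 8. Mir200b, Mir200a and Mir429 were 2.85 to 4.61 kb from one, and Mir205 had neither mark. Mir203, which drives differentiation of the epidermis, had both marks (H3K4me3 6.0 kb, height 78, and H3K27me3 20 kb, height 77). Of 9 muscle hairpins, Mir1a-1 had H3K27me3 (16.0 kb, height 52), Mir499 in Myh7b lay 0.843 kb from an H3K27me3 island of height 16, and 7 had neither. None of the 9 had H3K4me3, the nearest being 4.64 kb from Mir499. Of 15 blood and endothelial hairpins, Mir181c and Mir181d shared an H3K4me3 island of 9.20 kb and height 79. Mir142, a general blood microRNA, lay 0.674 kb from an H3K27me3 island of 12 kb and height 48, and 12 had neither, among them Mir144, Mir451a, Mir150, Mir155 and the endothelial Mir126a, 1.76 kb from H3K4me3. Mir221, Mir222 and Mir223 of this list are on other chromosomes and were not used.

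**Figure D5:**
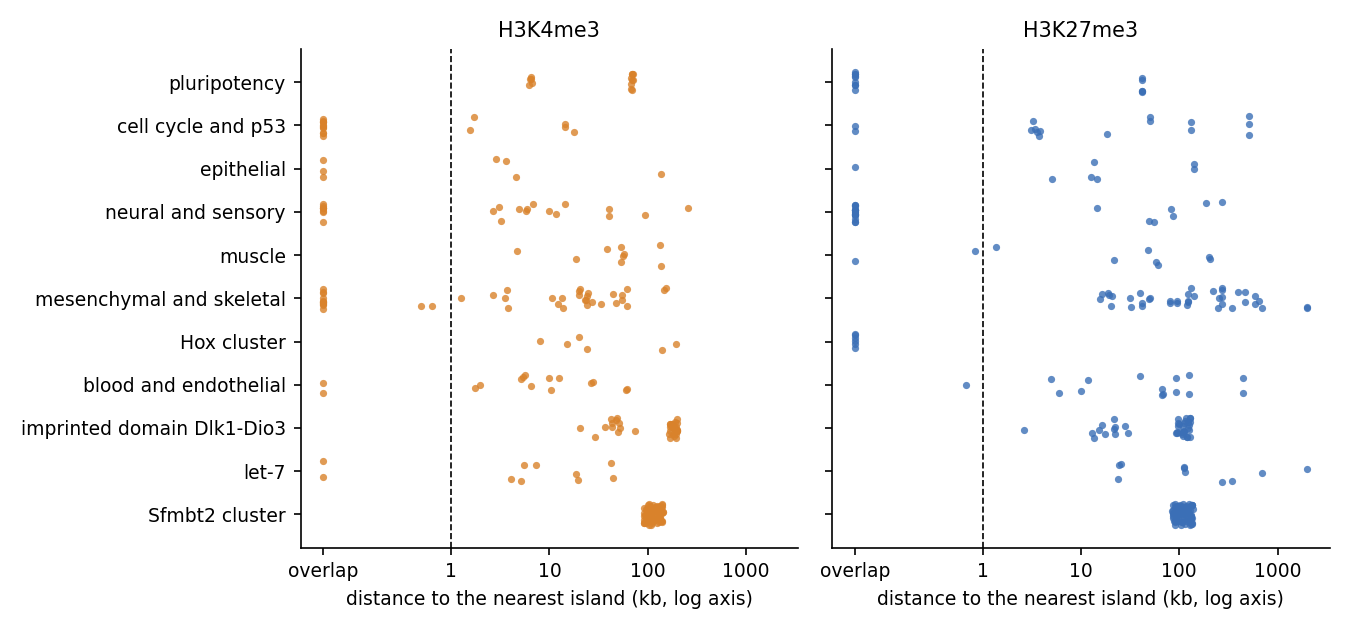
Distance in kb, on a log axis, from each listed hairpin to the nearest H3K4me3 island (left) and H3K27me3 island (right); each point is 1 hairpin, the dashed line is the limit of 1 kb and hairpins in an island stand at the left edge. The Sfmbt2 hairpins form 1 group over 85 kb from either mark, and the mesenchymal and skeletal hairpins have no point left of the limit for H3K27me3.

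Clusters, here hairpins no more than 10 kb from the next, numbered 81 and held 313 hairpins. An island of either mark was at 33 of them, with H3K4me3 only at 16, both marks at 9 and H3K27me3 only at 8. Clustered hairpins had H3K4me3 in 51 of 313 (16.3%, 12.4 to 20.9%) and single hairpins in 174 of 777 (22.4%, 19.5 to 25.5%). For H3K27me3 the counts were 39 (12.5%) and 77 (9.91%). The order for H3K4me3 rests on the 126 unmarked hairpins of the 3 largest clusters: without them 51 of 187 clustered hairpins had H3K4me3 (27.3%) and 39 had H3K27me3 (20.9%), an alternative added after seeing the data. Counted by cluster, 25 of 81 (30.9%) had H3K4me3 and 17 (21.0%) H3K27me3. Every hairpin of the cluster had H3K4me3 in 19 of the 25 clusters with that mark, and H3K27me3 in 12 of the 17 with that one. By size, 25 of 61 pairs and 8 of 17 clusters of 3 to 9 had an island, but none of the 3 clusters of 10 or more.

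Those 3 largest clusters were the 71 hairpins inside Sfmbt2, the 39 hairpins around Mirg and the 16 hairpins around Meg3 and Rtl1. The Sfmbt2 hairpins were 90.9 kb or more from H3K4me3 and 85.3 kb or more from H3K27me3. The Mirg and Meg3 groups belong to the imprinted Dlk1-Dio3 domain, whose microRNAs are made from the maternal chromosome. The nearest islands were 166 kb (H3K4me3) and 93.5 kb (H3K27me3) from the Mirg group, and 20.5 and 12.8 kb from the Meg3 group. Between them in Rian, Mir341 and Mir1188 lay in an H3K27me3 island of 7.40 kb and height 14, while Mir370 was 2.66 kb from it. All 39 hairpins of the list for this domain had neither mark, but the list leaves out Mir341, Mir1188 and Mir1247. At the far end of the domain Mir1247, beside Dio3, had both marks.

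Among clusters of 3 to 9 with an island, those not yet described were Mir497b, Mir497 and Mir195a (chr11:70234692-70235135). Their H3K4me3 island was 17.2 kb wide with a height of 106, and H3K27me3 overlapped 40.7% of that island but ended 2.49 kb from the hairpins. Mir497 and Mir195a share the seed AGCAGCA with Mir15a and Mir16-1, which had neither mark. Other hairpins with a shared seed differed in state too. Of those with the seed AUUGCAC, Mir25 and Mir92-1 had H3K4me3 only, Mir92b both marks, and Mir32 and Mir367 neither. Among families at 3 loci, miR-196 was in H3K27me3 alone and miR-199 in H3K4me3 alone at every locus. No other seed at 3 loci was in the same marked state throughout. More of them, such as that of Mir103-1, Mir103-2 and Mir107, had neither mark at any locus.

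Intergenic hairpins with both marks were 8: Mir212, Mir132, Mir193a, Mir1247, Mir203, Mir124a-3, Mir92b and Mir8109. Mir212 and Mir132, which respond to activity in neurons, shared an H3K4me3 island of 16.0 kb (height 112) and an H3K27me3 island of 15.2 kb (height 111, the 4th highest of 10421). Both islands held the start of Hic1, a transcriptional repressor gene, 3.18 kb from Mir212. Mir1247 had H3K4me3 of 8.0 kb (height 94) and H3K27me3 of 21.4 kb (height 85), which held the start of Dio3. Mir193a had H3K4me3 of 1.60 kb (height 112) and H3K27me3 of 6.80 kb (height 31), and Mir8109 of 2.60 kb (height 99) and 8.60 kb (height 29). Mir92b had an H3K4me3 island of 5.00 kb (height 51) and the lowest H3K27me3 island at any microRNA gene, with a height of 7. The heights of H3K27me3 at these 8 hairpins therefore ran from 7 to 111.

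Of the 13 host transcripts, Mir22hg, Mir17hg, Mir99ahg and Mir100hg had H3K4me3 only, Mir124a-1hg, Mir670hg and Mir9-3hg both marks, Mir1a-1hg and Mir124-2hg H3K27me3 only, and Mir205hg, Mir217hg, Mir155hg and Mir133a-1hg neither. For Mir99ahg, 229 kb long, an H3K4me3 island of 6.60 kb and height 53 touched the transcript. Mir99a and Mirlet7c-1, which lie outside its annotated span, were 44.6 and 43.9 kb from any. Mir100hg was likewise marked, with Mir100 47.3 kb from H3K4me3. The 8 H3K4me3 and 3 H3K27me3 islands that reached no hairpin were at these transcripts.

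The narrowest member islands were both at Mir6236 on chromosome 9, where an island of 0.199 kb was called for each mark, with heights of 26 for H3K4me3 and 56 for H3K27me3. This is the smallest width in either library, and without an input library a site enriched in any immunoprecipitate cannot be told apart from a marked one.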

How the data were processed

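Chromatin of EdU-positive incisor pulp cells was immunoprecipitated for H3K4me3 and H3K27me3, 1 library each, with both libraries kept as separate groups. The submitters' processing notes name BWA, SICER, which joins enriched windows into islands, and mm10; neither versions nor settings are stated in the labels. The deposited islands come, per the file headers, with the height at the summit, a whole-number score whose scaling between libraries is not given, so heights were compared within a mark only. All island widths (100%) were 1 bp short of a multiple of 200 bp. No read counts were used, so sequencing depth is unknown and a weak island can be missing.

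An island belonged to a microRNA gene where the gap was at most 1000 bp (Python 3.11.15, pandas 2.3.3). Genes, hosts and sequences came from RefSeq tables of GRCm38.p6, positions are 1-based, and gene rows on unplaced scaffolds were left out. The start table is incomplete (0 starts on chromosome 18), so distances were left out where a gene without a listed start lay nearer. Clusters joined hairpins within 10 kb. Clopper-Pearson 95% intervals came from scipy 1.17.1. The assignment was tested on simulated islands. With 1 library per mark no test was run, and the comparisons are counts, shares and medians. Members, lists and the rule for named genes were chosen with earlier results of these data known. By that rule the text names list members (values planned for up to 6 per state), microRNA genes at the 10 widest and 10 highest islands of each mark, clusters of 3 or more with an island, intergenic hairpins with both marks, and their hosts. The limit of 6 was exceeded for some lists, such as the mesenchymal and skeletal and the neural and sensory list. Mir1904, Mir6236, the seed families and the examples of distant and noncoding hosts were chosen after their values were seen. Alternatives were other distances, only islands with higher summits, clusters counted once, the X chromosome, coding hosts only and other cluster limits.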

Additional observations from a re-analysis of the deposited data

How the results depend on the processing

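Of 79 alternatives over 14 results, 65 kept counts within 1.5 times and medians within their 95% interval. With only the 50% of islands of each mark with the higher summits, hairpins with H3K4me3 numbered 146 (30 intergenic, 116 in hosts), hairpins with both marks 17 and H3K4me3 member islands 129, whose median width was 5.80 kb and median height 142. With a distance of 5 kb, 90 hairpins had both marks, 41 intergenic hairpins had H3K27me3, and the member islands were 319 for H3K4me3 and 146 for H3K27me3, the latter with a median width of 9.10 kb. With coding hosts only, 51 of 339 intergenic hairpins had H3K27me3 (15.0%), against 65 of 751 in hosts (8.66%), so the similar shares of intergenic and host hairpins rest on how noncoding hosts are counted. With 50 kb between hairpins, 56 of 109 clusters had an island. No paired analysis was possible because each mark has 1 library. Unknown depth, called islands only and an incomplete start table limit all values.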
